A study of Homo sapiens with 8 samples.

Results

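Human breast cancer cells in 4 groups make up the series, and the results given here concern the pair measured on Illumina bead arrays, the lung-metastatic line LM2 and the MDA-MB-231 cells it came from. The members were chosen by their titles, 2 LM2 arrays and 2 MDA-MB-231 arrays out of 8 samples in all, and every gene with 1 gene symbol on that platform was followed. MDA-MB-231 is an established triple-negative breast cancer line, labelled poorly metastatic, and LM2 is a derivative of it that was selected in mice for growth in the lung and is labelled highly metastatic. Both were grown in DMEM with fetal bovine serum, and the labels name no treatment or transgene, though the titles add the letters tr to both names without saying what they mean. The other 4 samples, LM2 control cells and LM2 cells over-expressing miR-126, were run on another platform, share no array with these and were not used here. The comparison asks how the transcripts of the metastatic derivative differ from those of the line it came from. LM2 is 1 selected line, so its differences describe that line against its parent. Each group has an array A and an array B, as lettered in its titles. Whether these were separate cultures is not in the labels, so the p-values speak only of the spread between these samples, and that spread may be technical.

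Tumour cells that colonise the lung must leave the primary tumour, survive in blood, cross the wall of lung capillaries and start to grow in a foreign matrix. Proteins known for roles in these steps include matrix glycoproteins and collagens that cells attach to, proteases that cut them, secreted factors such as prostaglandins and angiopoietin-like proteins that act on vessels, and receptors that blunt or receive inflammatory signals. Interferon-stimulated genes and the machinery that displays peptides on class I molecules decide in part how visible a tumour cell is to lymphocytes. ID proteins are small nuclear proteins that bind helix-loop-helix transcription factors and keep them from DNA, and BMP signals induce them in many cells.

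Intensities of a bead array are in arbitrary units that differ between probes, so a level is compared here only between arrays and never between genes. The median intensity was 94.39 on each array, the lowest values lay between 43.21 and 46.47 and the highest between 58571 and 65834. The lowest values are far above 0, so background makes up part of the signal of dim genes and their folds are understated. Differences are LM2 minus MDA-MB-231 on a log2(intensity + 16) scale. Of 18852 genes, 12490 had a mean above that of the median probe (intensity 93.31) and were tested, and 6362 were not. The arrays of MDA-MB-231 differed from each other by 0.248 log2 in the mean over tested genes and those of LM2 by 0.188, while the group means differed by 0.229. VIM, the mesenchymal filament protein vimentin, was bright on all 4 arrays, with intensities of 29186 and 25568 in MDA-MB-231 and 35650.4 and 32249 in LM2. The hormone receptor genes ESR1 and PGR, the luminal factor FOXA1 and the basal keratins KRT5 and KRT14 were below the expression filter. Epithelial and luminal markers were not all low, since EPCAM had intensities of 2049 and 1074 in MDA-MB-231 and 874 and 621 in LM2, and KRT8, KRT18, GATA3, CDH1 and ERBB2 were also above the filter.

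With limma and Benjamini-Hochberg adjustment at a threshold of 0.05, 105 genes were higher in LM2, which is 0.841% of those tested, and 184 were lower, which is 1.47%. The genes called in either direction were 289 or 2.31%, and at an unadjusted p under 0.05 there were 1803. The lists followed below were written with earlier results of these data known, so a list count above these shares is not independent evidence. The groups did not overlap in any of the 289, against 44% of all tested genes. Of the rises, 77 were over 2-fold and 13 over 4-fold, and of the falls 109 and 14. The split of higher to lower calls depended on the scaling, since quantile normalization gave 131 and 131 and cyclic loess 135 and 142. The median over all tested genes was -0.0407, with 5217 differences above 0 and 7273 below. For 55 of the rises and 60 of the falls the line with less signal was under the upper quartile of the array's probes (intensity 127.2), where the change is most understated.

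**Figure D1:**
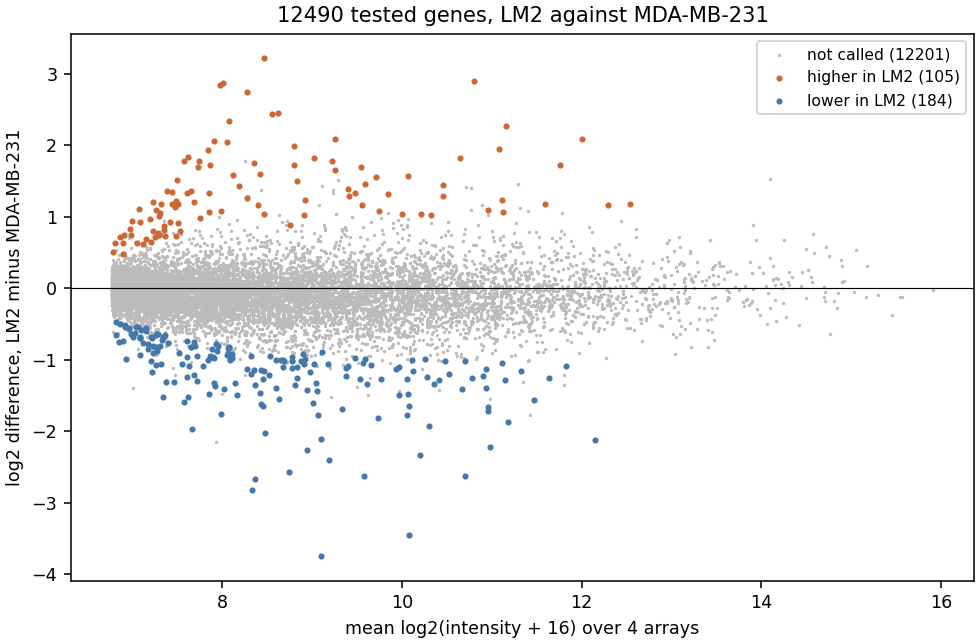
Log2 difference (LM2 minus MDA-MB-231) against the mean log2(intensity + 16) over the 4 arrays, 1 point per tested gene. The 105 genes higher in LM2 are orange, the 184 lower are blue and the 12201 others grey, and called genes lie at both dim and bright intensities.

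Genes linked to lung metastasis were followed first. LM2 had more of SPARC, a matrix glycoprotein secreted by remodelling tissue, of IL13RA2, a decoy receptor for interleukin 13, and of ANGPTL4, a secreted factor that loosens junctions between endothelial cells. Of 17 measured genes on this list 15 were above the filter, 7 were higher, none was lower and 8 did not pass, and the median difference was 1.13 against -0.0407 over all tested genes. The list comes from published work on MDA-MB-231 and lines selected from it, so its direction is not independent evidence. In these bulk samples, fewer cells that express a gene and less RNA per cell cannot be told apart.

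SPARC had intensities of 90.0 and 69.0 in MDA-MB-231 cells and 867 and 536 in LM2 cells. Both parental values were near the bottom of the array's range and both LM2 values far above it. The level was 7.35-fold higher in LM2 (log2 difference 2.88, SE 0.24, adjusted p = 0.000271). For IL13RA2 the parental arrays gave 71.6 and 84.0 and the LM2 arrays 881 and 490.2. The pattern is the same, with the parental line near background and LM2 array A above array B. LM2 was 7.20-fold higher (2.85, SE 0.25, adjusted p = 0.000454). ANGPTL4 gave 121 and 80.1 in MDA-MB-231 and 428 and 338 in LM2. Again no LM2 value came near a parental value, and the rise was 3.45-fold (1.79, SE 0.21, adjusted p = 0.00168). Its other probes, both below the filter, differed by 0.13 and -0.15.

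PTGS2, the inducible cyclooxygenase that makes prostaglandin precursors, gave 161 and 160.4 in MDA-MB-231 and 653 and 323 in LM2. The groups were apart, but the LM2 arrays differed by about as much as LM2 B differed from the parental line. Its rise was 2.70-fold (1.43, adjusted p = 0.0261), and the call was lost without LM2 array A (adjusted p = 0.159). The other PTGS2 probe, also above the filter, differed by 0.31. KYNU, kynureninase of the tryptophan breakdown pathway, went from 138 and 308 to 1047 and 719, a difference of 1.99 (adjusted p = 0.00983). ADIRF, a factor first described in fat cell formation, went from 1566 and 750.2 to 5945 and 3009.6, a difference of 1.95 (adjusted p = 0.0261). Both also lost the call without LM2 A, at adjusted p = 0.0787 and 0.206. TNC, tenascin C, a matrix glycoprotein of stem cell niches and wounds, gave 211 and 251 in MDA-MB-231 and 568 and 422 in LM2. Its groups did not overlap and its rise was 2.05-fold (1.04, adjusted p = 0.034), against 0.42 at its other probe, also above the filter. TNC kept its call only when MDA-MB-231 B was the array left out, with an adjusted p up to 0.308 without one of the other 3.

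VCAM1, an adhesion molecule that binds integrins on leukocytes, did not pass. Its intensities were 216 and 467 in MDA-MB-231 and 1538 and 513 in LM2. LM2 A stood alone, LM2 B lay close to MDA-MB-231 B, and the difference of 1.44 did not pass (SE 0.45, adjusted p = 0.148). The actin bundler FSCN1 reached 1.13 (adjusted p = 0.0589), the collagenase MMP1 0.63 (adjusted p = 0.175) and the EGF family ligand EREG 0.39 (adjusted p = 0.131). Their groups did not overlap, which held for 44% of all tested genes. NEDD9, a scaffold of focal adhesions, had the lowest value of the list, -0.65 (adjusted p = 0.0632). ID1, MMP2 and MAN1A1 overlapped between the groups. CXCL1, a neutrophil chemokine, was below the filter, with intensities of 70.1 and 68.9 and 89.2 and 81.5. Counts on this list ran from 3 higher without LM2 A to 10 higher without MDA-MB-231 B.

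Genes reported as targets of miR-335 or linked to miR-126 in LM2 cells made up another list, which overlaps the first in TNC and likewise comes from published work on these lines. All 8 were above the filter and had differences above 0, of which 4 were called, and the median was 0.818. COL1A1, a chain of fibrillar collagen I, had intensities of 109 and 92.6 in MDA-MB-231 and 539 and 345 in LM2, which is 3.84-fold higher (1.94, SE 0.22, adjusted p = 0.00135). PLCB1, a phospholipase C that answers to G protein-coupled receptors, rose from 80.8 and 101 to 213 and 237 (1.18, adjusted p = 0.00251), and PTPRN2, a receptor-type phosphatase of secretory vesicles, from 82.3 and 70.5 to 190.1 and 136 (0.94, adjusted p = 0.00842). The other PLCB1 probe, below the filter, differed by 0.10. At the probes used, all parental values of these 3 genes were below every LM2 value, as in every gene called higher. The others were the lipid transfer protein PITPNC1 (0.70, adjusted p = 0.088), the IGF carrier IGFBP2 (0.54, adjusted p = 0.125), the transcription factor SOX4 (0.40, adjusted p = 0.297) and the receptor kinase MERTK (0.21, adjusted p = 0.776). Only MERTK among them overlapped between the groups, with 295 and 478 in MDA-MB-231 and 474 and 405 in LM2. Groups were apart in 44% of all tested genes. EGFL7, which hosts miR-126 in an intron, was below the filter, and no microRNA was measured.

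**Figure D2:**
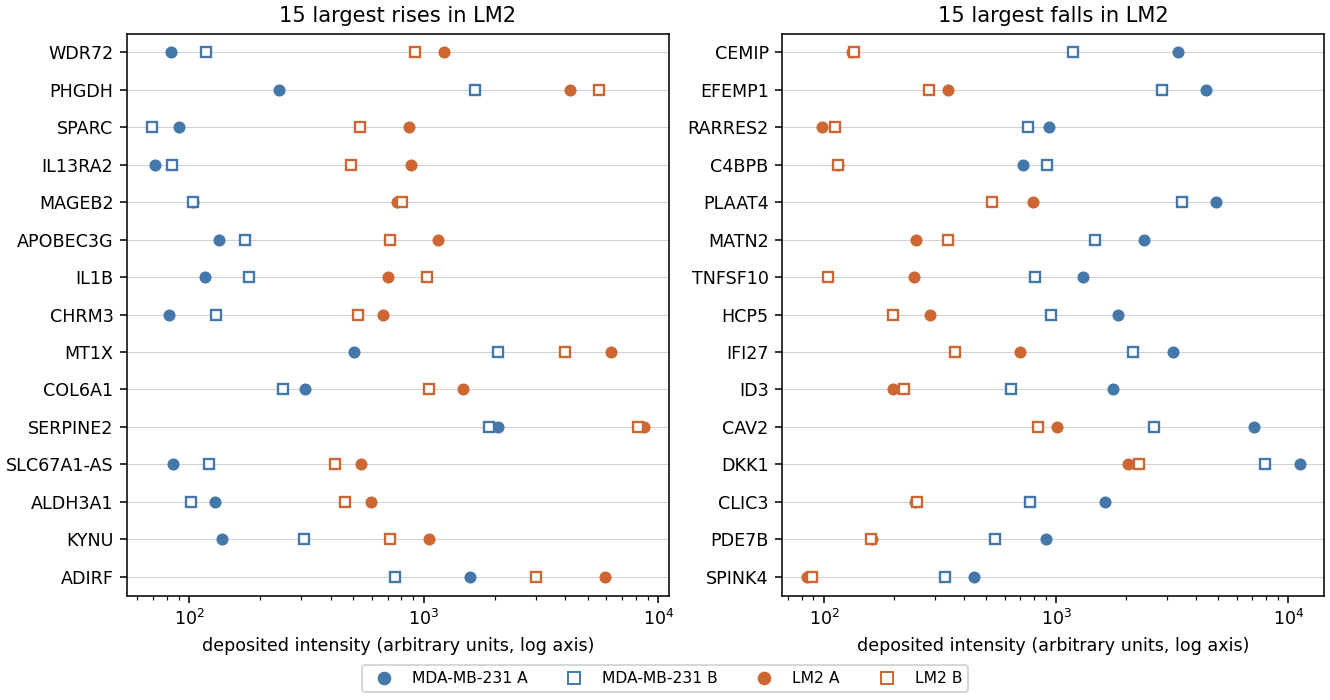
Deposited intensity (log axis) on each of the 4 arrays for the 15 largest rises (left) and the 15 largest falls (right) among called genes. Blue marks MDA-MB-231 and orange LM2, filled circles array A and open squares array B; the groups are apart in all 30 genes, and for PHGDH and MT1X the MDA-MB-231 arrays are far from each other.

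The largest rise outside these lists was that of WDR72, a WD repeat protein known from enamel formation. Its intensities were 83.3 and 118 in MDA-MB-231 and 1223 and 913 in LM2. The parental values lay at the level of dim probes and the LM2 values well clear of it, and the change was 9.30-fold (3.22, SE 0.23, adjusted p = 0.000116). Another WDR72 probe, below the filter, differed by -0.03. MAGEB2, a cancer-testis antigen normally made in germ cells, read 104 and 103 in MDA-MB-231 and 767 and 807 in LM2, 6.71-fold higher (2.75, SE 0.19, adjusted p = 0.000116). The 2 arrays of each line almost coincided, while another MAGEB2 probe, below the filter, differed by 0.11. It was the only called gene of 22 cancer-testis antigens above the filter, whose median was 0.0849, although 5 were higher without MDA-MB-231 B and 3 higher and 2 lower with the letter as a replicate block. The 1 call is 4.55% of that list, against 2.31% of all tested genes, and the list median ran from 0.0283 to 0.883 over the other settings. SPANXC, SPANXA1, SPANXB1 and SPANXD had differences from 0.88 to 1.17 without a call. CHRM3, a muscarinic acetylcholine receptor, went from 82.1 and 129.9 to 667 and 524 (2.34, adjusted p = 0.000845). Its other probe, below the filter, differed by -0.10. The antisense transcript SLC67A1-AS read 85.1 and 121 in MDA-MB-231 and 537 and 417 in LM2, a difference of 2.05 (adjusted p = 0.000866).

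Matrix genes went both ways. Among 27 matrix glycoproteins above the filter, 5 were higher and 3 lower, with a median of -6.88e-05. Beside SPARC and TNC, the rises were in FBLN1, a fibulin of elastic fibres and basement membranes, from 145 and 143 to 520.1 and 413 (1.58), in the proteoglycan SPOCK1 (1.22) and in the microfibril protein MFAP2 (0.98). The other 4 FBLN1 probes differed by 1.27 and 0.66 above the filter and by 0.04 and 0.00 below it. Both other MFAP2 probes, below the filter, differed by 0.04 and -0.09, and its call was lost in 4 of 15 other settings. EFEMP1, another fibulin, moved the other way. Its intensities were 4428 and 2863 in MDA-MB-231 and 342 and 284 in LM2. Even the lower parental array was several times above both LM2 arrays, and the fall was 10.9-fold (-3.45, SE 0.26, adjusted p = 0.00013). MATN2, a matrilin that links collagen networks, fell from 2393 and 1472 to 248 and 341 (-2.62, adjusted p = 0.000866), and its other probe differed by -0.54. THBS1, the anti-angiogenic glycoprotein thrombospondin 1, read 6854 and 3437 in MDA-MB-231 and 1877 and 1413 in LM2. Its fall of 2.96-fold (-1.57, adjusted p = 0.0322) was lost under both other scalings and without MDA-MB-231 A, LM2 A or LM2 B (adjusted p up to 0.264).

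Of 26 collagen chains, COL6A1 and COL1A1 were higher, COL12A1 was lower and 23 did not pass, with a median of 0.0453. COL6A1, a chain of the beaded-filament collagen VI, had intensities of 309.9 and 252 in MDA-MB-231 and 1464 and 1052 in LM2. LM2 was 4.26-fold higher (2.09, SE 0.24, adjusted p = 0.00135). Its partner chains COL6A2 (0.73, adjusted p = 0.125) and COL6A3 (0.35, adjusted p = 0.667) did not pass, and COL6A3 overlapped between the groups. COL1A2, the partner of COL1A1 in collagen I, had a difference of -0.50 (adjusted p = 0.496), opposite in sign to COL1A1 but within its spread. COL12A1 read 363 and 324 and then 185 and 185, a fall of 0.83 on the log2 scale (adjusted p = 0.0408) that ended in 7 of 15 other settings. On the receptor side, 2 of 20 integrin and laminin genes were higher and none lower, with a median of 0.106. They were LAMA4, a laminin chain of vessel walls, from 95.5 and 91.7 to 227 and 198 (1.06, adjusted p = 0.00332), and ITGB4, the integrin subunit of hemidesmosomes, from 537 and 297 to 1066 and 1078 (1.39, adjusted p = 0.0263).

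Matrix proteases and their inhibitors gave 3 rises and 1 fall among 38, with a median of -0.0409. SERPINE2, an inhibitor of thrombin and urokinase known as protease nexin-1, was bright in both lines. Its intensities were 2066 and 1886 in MDA-MB-231 and 8702 and 8169.6 in LM2, with little distance between arrays of a line. The rise was 4.25-fold (2.09, SE 0.23, adjusted p = 0.00123). The membrane proteases MMP16 (0.62, adjusted p = 0.0254) and ADAM19 (1.03, adjusted p = 0.0416) were also higher. The secreted protease ADAMTS9 was lower (-1.21, adjusted p = 0.01015). Other probes, below the filter, differed by -0.02 for MMP16 and -0.19 for ADAM19. The call was lost in 4 of 13 other settings for MMP16, 6 of 15 for ADAM19 and 3 of 15 for ADAMTS9. Of 10 genes of hyaluronan turnover CEMIP alone was called, and it had the largest fall of all genes. CEMIP, which takes part in the breakdown of hyaluronan, gave 3352 and 1177 on the MDA-MB-231 arrays and 133 and 135 on the LM2 arrays. The parental arrays differed widely, the LM2 arrays were nearly equal and close to the background, and the fall was 13.4-fold (-3.74, SE 0.38, adjusted p = 0.000866). The hyaluronan synthases HAS2 (0.38) and HAS3 (0.43) and the receptor CD44 (-0.31) did not pass.

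Cytokine genes were led by IL1B, the inflammatory interleukin 1 beta. It read 116 and 179.8 in MDA-MB-231 and 706 and 1033 in LM2. No array of one line came near the other, and LM2 was 5.40-fold higher (2.43, SE 0.26, adjusted p = 0.000866). Among 35 interleukins, colony-stimulating factors and receptors, IL1B, IL13RA2 and CSF3, the granulocyte colony-stimulating factor, were higher and IL32 was lower, with a median of -0.0686. CSF3 went from 100.5 and 86.2 to 299 and 226 (1.34, adjusted p = 0.00251) and IL32 from 199.7 and 168 to 106 and 90.0 (-0.81, adjusted p = 0.0156). The other IL32 probe differed by -0.36, and the other CSF3 probes, both below the filter, by 0.13 and 0.37. IL6 (0.21) and IL1A (0.78) did not pass. Of 16 chemokine genes, 2 were lower and none higher, with a median of -0.037. The falls were 5 with the 5th percentile of each array subtracted, 6 without MDA-MB-231 B or with the letter as a replicate block, and 1 without either LM2 array, and the lowest median over the settings was -0.787. RARRES2 encodes chemerin, which draws dendritic and natural killer cells, and had intensities of 931 and 755 in MDA-MB-231 and 98.3 and 111 in LM2. Both LM2 arrays were near background, and the fall was 7.08-fold (-2.82, SE 0.20, adjusted p = 0.000116). CCL2, a monocyte chemokine, fell from 144 and 207 to 87.6 and 101 (-0.78, adjusted p = 0.0356). CXCR4, a chemokine receptor much studied in breast cancer spread and chosen here after its value was seen, had a difference of -2.14 from 196 and 1226 in MDA-MB-231 to 101 and 99.7 in LM2 that did not pass (adjusted p = 0.0907).

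In the TNF family 2 of 34 genes were higher and 2 lower, with a median of -0.00338. The ligands TNFSF4, which stimulates T cells through OX40, and CD70, which does so through CD27, were both higher. TNFSF4 gave 86.0 and 119.9 in MDA-MB-231 and 414 and 321 in LM2 (1.69, adjusted p = 0.00168), and CD70 gave 109 and 114 and 542 and 302 (1.72, adjusted p = 0.00415). In neither did the groups overlap, which held for every called gene. The receptor CD40 fell from 216 and 210.4 to 103 and 86.6 (-1.05, adjusted p = 0.00353), with the call lost without LM2 B (adjusted p = 0.0811). The other CD40 probe, also above the filter, differed by -0.21. TNFSF10, the death ligand TRAIL and also an interferon-stimulated gene, read 1309.6 and 808 in MDA-MB-231 and 243 and 104 in LM2. LM2 B was the lowest, and the fall was 5.93-fold (-2.57, SE 0.34, adjusted p = 0.00332). Of 17 complement genes 2 were lower. C4BPB, a chain of the C4b-binding inhibitor, fell from 718 and 916 to 115 and 115 (-2.66, adjusted p = 0.00013), and CFB, factor B of the alternative pathway, from 588 and 330.4 to 202 and 186 (-1.13, adjusted p = 0.0465), the latter lost in 8 of 15 other settings.

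Interferon-stimulated genes were lower in part. Of 49 above the filter, 7 were lower, ISG20 alone was higher and 41 did not pass, and the median was -0.164 with 35 differences below 0. The promoters of 3 genes that fell, IFIT1, MX1 and IFI27, are shown because these genes share a known regulatory element. The element is the core of the interferon-stimulated response element, GAAANNGAA on either strand, where IRF proteins are known to bind. The sequences are from RefSeq (GRCh38.p14), run from 250 bases before to 50 bases after a RefSeq start site on the gene's strand, and carry the matches in capitals. Where a gene has several entries the first was taken, and that of IFI27 lies inside the gene's annotated span, after its outermost start.
IFIT1: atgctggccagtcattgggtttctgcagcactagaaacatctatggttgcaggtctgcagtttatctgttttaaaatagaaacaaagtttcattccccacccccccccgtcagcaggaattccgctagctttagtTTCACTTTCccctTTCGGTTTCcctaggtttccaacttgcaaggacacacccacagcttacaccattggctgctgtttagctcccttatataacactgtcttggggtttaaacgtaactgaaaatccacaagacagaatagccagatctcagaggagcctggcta
MX1: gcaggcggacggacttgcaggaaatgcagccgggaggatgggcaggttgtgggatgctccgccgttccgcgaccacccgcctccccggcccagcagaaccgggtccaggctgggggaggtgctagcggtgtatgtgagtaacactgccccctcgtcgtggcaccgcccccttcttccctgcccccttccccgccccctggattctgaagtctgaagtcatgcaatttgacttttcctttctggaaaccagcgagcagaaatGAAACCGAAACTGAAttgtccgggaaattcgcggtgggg
IFI27: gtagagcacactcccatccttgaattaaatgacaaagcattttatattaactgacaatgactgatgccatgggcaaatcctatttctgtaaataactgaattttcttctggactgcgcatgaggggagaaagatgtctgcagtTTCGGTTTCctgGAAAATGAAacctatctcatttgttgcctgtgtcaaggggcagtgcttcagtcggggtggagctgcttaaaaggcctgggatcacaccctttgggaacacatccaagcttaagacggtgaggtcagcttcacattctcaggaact

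IFIT1 lies at chr10:89392373-89392672 (plus strand) and holds 2 matches on the opposite strand, which start 115 and 102 bases before the start site. In MX1, at chr21:41420308-41420607 (plus strand), 2 overlapping matches follow the start site, and in IFI27, at chr14:94110486-94110785 (plus strand), 1 match lies on each strand, 107 and 95 bases before it. Over 35116 human promoters of this length, 8.11% held the core at least once. On the interferon list 28 of 40 genes with a promoter entry held it, and these were 6 of 6 called genes, ISG20 among them, and 21 of 32 genes above the filter that were not called. Called and uncalled members of the list thus both carry it.

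IFIT1 encodes a protein that binds viral RNA lacking host cap marks. Its intensities were 829 and 749 in MDA-MB-231 and 246 and 329 in LM2, with arrays of each line close together. The fall was 2.68-fold (-1.42, SE 0.22, adjusted p = 0.00686), and it was lost without LM2 A (adjusted p = 0.133). The other IFIT1 probe, also above the filter, differed by -0.34. MX1, a GTPase that blocks virus entry into the nucleus, gave 1392 and 1512 in MDA-MB-231 and 642 and 694 in LM2. It fell 2.15-fold (-1.10, adjusted p = 0.0266) and was lost without LM2 A or B (adjusted p up to 0.246). IFI27, a small membrane protein strongly induced by type I interferon, read 3186 and 2148 in MDA-MB-231 and 699 and 367 in LM2. All LM2 values lay under all parental values, with a fall of 5.03-fold (-2.33, SE 0.32, adjusted p = 0.00348).

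LY6E, a lipid-anchored surface protein, fell from 924 and 1018 to 239 and 314 (-1.77, adjusted p = 0.00224). PARP12, an ADP-ribosyl transferase, fell from 304 and 303 to 132 and 138 (-1.08, adjusted p = 0.00686), and IFIT2, a relative of IFIT1, from 1480.0 and 1382 to 774 and 543 (-1.12, adjusted p = 0.0368). In all 3 the groups were apart, as in every called gene, and the call of PARP12 was lost in 2 of 15 other settings. ISG20, an exonuclease that degrades single-stranded RNA, went the other way. It read 302 and 308 in MDA-MB-231 and 1190.0 and 1004 in LM2, a rise of 3.45-fold (1.79, SE 0.21, adjusted p = 0.00168). IFIT3 just missed the threshold (-0.97, adjusted p = 0.0547), without overlap between the groups, as in 44% of all tested genes. ISG15 had -0.49 with groups that overlapped (adjusted p = 0.461), while 0.22 for OAS1, 0.25 for IRF7 and 0.55 for IFI44 lay above 0. The number of falls ran from 3 without LM2 A to 11 without MDA-MB-231 B and 12 with the letter A or B as a replicate block, and ISG20 was higher in each of the 15 other settings.

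Antigen presentation genes had the lowest median of all lists followed, -0.483, and 27 of 30 lay below 0. The median stayed between -0.676 and -0.333 over the other settings, although only 4 genes passed, all lower, and these 4 lie close together on chromosome 6, where most other genes were below 0 as well. TAP1, a subunit of the transporter that moves peptides into the endoplasmic reticulum, is shown with its promoter because it shares the element above.
TAP1: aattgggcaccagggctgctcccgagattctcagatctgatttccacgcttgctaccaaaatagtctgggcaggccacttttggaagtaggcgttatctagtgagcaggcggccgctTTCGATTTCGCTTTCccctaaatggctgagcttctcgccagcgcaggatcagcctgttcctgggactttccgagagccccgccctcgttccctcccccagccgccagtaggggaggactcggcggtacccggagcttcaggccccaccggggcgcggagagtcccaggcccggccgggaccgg

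This TAP1 promoter is chr6:32853655-32853954 (minus strand, RefSeq, GRCh38.p14), and its 2 overlapping matches to the core, in capitals, start 133 and 127 bases before the start site. On the antigen presentation list 12 of 30 genes with a promoter entry held a match, 1 of 4 called genes and 10 of 23 above the filter that were not called. TAP1 had intensities of 2690.2 and 2603 in MDA-MB-231 and 1028 and 943 in LM2. The 2 arrays of each line agreed closely, and the fall was 2.66-fold (-1.41, SE 0.22, adjusted p = 0.00821). Its neighbours PSMB8 and PSMB9, catalytic subunits of the immunoproteasome, fell with it. PSMB8 went from 1487 and 1605 to 739 and 789.6 (-1.0, adjusted p = 0.0403) and PSMB9 from 332 and 400.4 to 192 and 178 (-0.92, adjusted p = 0.0329). Other probes gave -0.38, -0.63 and -0.12 for PSMB8, all above the filter, and -0.24 for PSMB9, below it. HLA-DPA1, a class II chain, gave 508 and 720.4 in MDA-MB-231 and 277 and 119 in LM2 (-1.65, adjusted p = 0.0266). These calls rest on few arrays, 2 of each line. Of the 15 other settings, 2 lost the call of TAP1, 5 that of PSMB8, 4 that of PSMB9 and 4 that of HLA-DPA1. Without LM2 A the differences were -1.47 for TAP1, -0.95 for PSMB8, -0.97 for PSMB9 and -2.21 for HLA-DPA1. Without LM2 B they were -1.35, -1.05, -0.87 and -1.08.

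The class I heavy chain HLA-B had the largest difference of the list, -1.78, yet it did not pass (SE 0.44, adjusted p = 0.0728). Its intensities were 8485 and 3027 in MDA-MB-231 and 2074 and 1039.9 in LM2. The groups did not overlap, as in 44% of all tested genes, but the MDA-MB-231 arrays were farther apart than MDA-MB-231 B and LM2 A. HLA-F (-1.38, adjusted p = 0.102), HLA-C (-0.60, adjusted p = 0.0827) and HLA-E (-0.60, adjusted p = 0.244) had the same sign, as did TAP2 (-0.73) and tapasin, TAPBP (-0.81), and B2M, the light chain (-0.41). Probes for HLA genes can pick up close relatives, so single members are uncertain. IFNGR2, a chain of the interferon gamma receptor named after its value was seen, was lower at -1.04 (adjusted p = 0.0465).

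**Figure D3:**
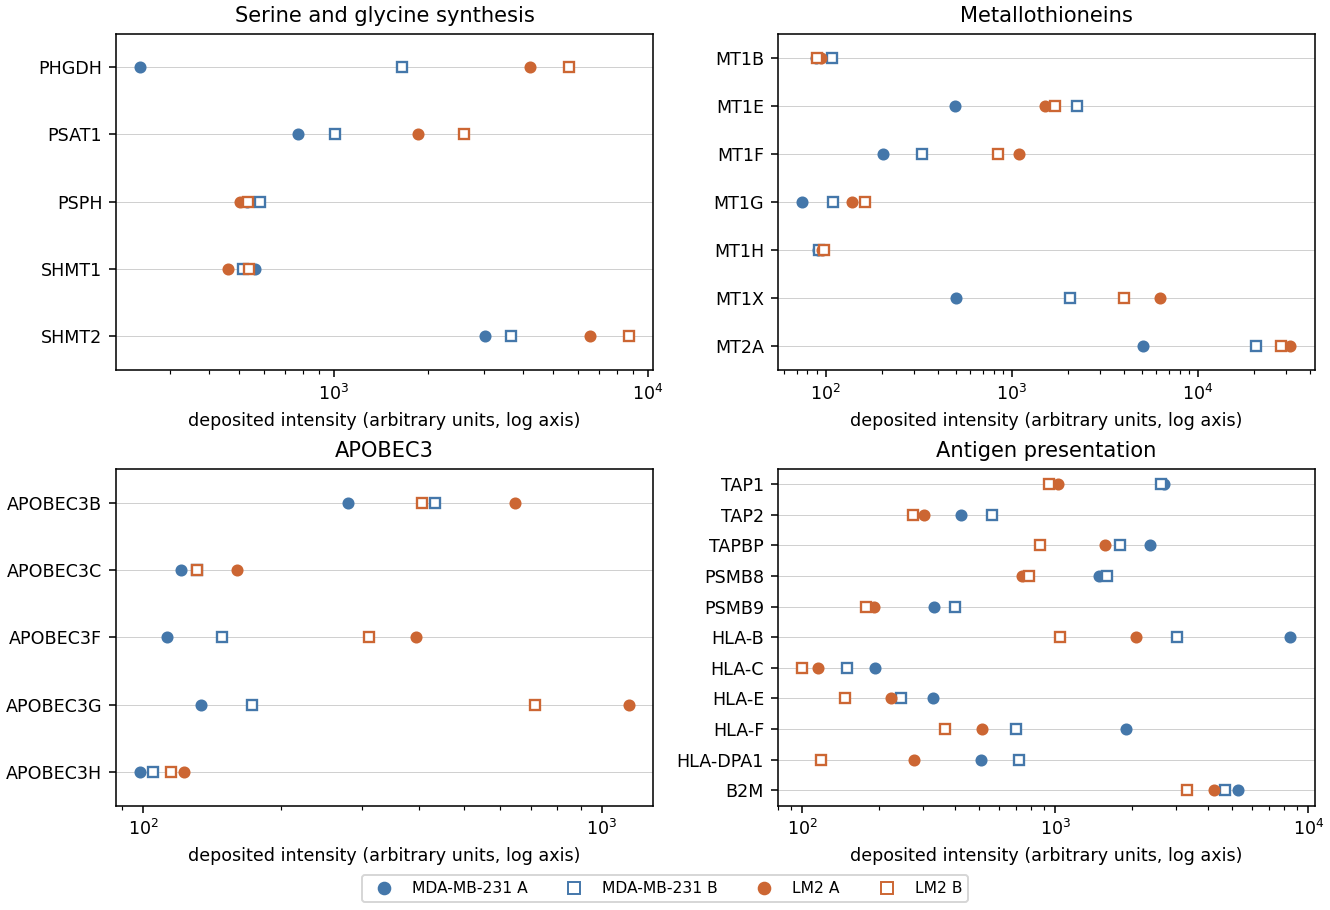
Deposited intensity (log axis) of members of 4 gene families on each array, with blue for MDA-MB-231, orange for LM2, filled circles for array A and open squares for array B. PHGDH, PSAT1 and SHMT2 lie to the right in LM2 while PSPH and SHMT1 overlap; MDA-MB-231 A is the leftmost array for MT1E, MT1F, MT1G, MT1X and MT2A; the antigen presentation genes drawn lie to the left in LM2.

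ID3 was the called ID gene. It had intensities of 1759.8 and 636 in MDA-MB-231 and 198 and 221 in LM2. The parental arrays were far apart, yet both exceeded LM2, and the fall was 4.78-fold (-2.26, SE 0.37, adjusted p = 0.00989). It missed the threshold without LM2 A (adjusted p = 0.064). ID1 gave 970.4 and 532 in MDA-MB-231 and 636 and 441 in LM2, which overlap (-0.43, adjusted p = 0.577), and ID2 gave 133 and 110.0 and 99.8 and 104 (-0.22, adjusted p = 0.471). Among 29 genes of ID proteins and BMP signalling 3 were lower and none higher, which is 10.3% called against 2.31% of all tested genes. Their median was -0.0854. The ligand BMP4 fell from 929 and 522 to 312 and 224 (-1.35, adjusted p = 0.0341) and the secreted antagonist FST, follistatin, from 2334 and 5475 to 1051 and 1101 (-1.72, adjusted p = 0.0283). Both calls were lost without either LM2 array, and that of BMP4 also without MDA-MB-231 A (adjusted p up to 0.174 for FST and 0.299 for BMP4). TGFB2 was the 1 called gene of 14 in TGF-beta signalling, which is 7.14% against 2.31% of all tested genes. It fell from 680.5 and 651 to 361 and 299.7 (-0.98, adjusted p = 0.0346).

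Other growth and signalling lists held few calls. DKK1, a secreted inhibitor of Wnt signals, read 11172 and 7966 in MDA-MB-231 and 2046 and 2284 in LM2. The LM2 arrays agreed closely, and the fall was 4.34-fold (-2.12, SE 0.25, adjusted p = 0.00168), against -0.49 at its other probe. Of 22 regulators and targets of YAP, the Hippo pathway scaffold WWC1 (-1.35) and F3, tissue factor (-1.44), were lower. Among 20 EGF and FGF family genes NRG1, neuregulin 1, fell from 496 and 592 to 243 and 206 (-1.21), while its 6 other probes differed by -0.28 to 0.24. Of 16 ephrins and Eph receptors EFNA1 was lower (-0.80), with -0.23 at its other probe. The calls were 9.09% of the YAP list, 5.0% of the EGF and FGF list and 6.25% of the ephrin list, against 2.31% of all tested genes. Among 33 ERK feedback and immediate early genes SPRY4, a feedback inhibitor of receptor kinases, was higher (1.23). It was the 1 call, 3.03% of the list, against 2.31% of all tested genes. Its 3 other probes, all above the filter, differed by 0.25, -0.08 and 0.60. The median of the list was 0.191. GAS6, the ligand of the receptor kinases AXL and MERTK, read 3891 and 3199.9 in MDA-MB-231 and 1417 and 856 in LM2, a fall of 3.17-fold (-1.67, adjusted p = 0.0108), and its other 3 probes gave -1.16, -1.53 and 0.044. The call of GAS6 was lost without LM2 B (adjusted p = 0.151). GAS6 and F3 made 2 falls among 26 coagulation and angiogenic genes, where ANGPTL4 was the 1 rise.

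Of the remaining large falls, PLAAT4, a phospholipase known to be induced by retinoids and interferons, gave 4882 and 3469 in MDA-MB-231 and 796 and 531 in LM2. Every parental value was several times above every LM2 value, with a fall of 6.20-fold (-2.63, SE 0.27, adjusted p = 0.000866). PLAAT4 and RARRES2 were the 2 called genes of 19 retinoid-responsive genes, whose median was -0.0945. HCP5, a long noncoding RNA of the class I region, fell from 1852 and 950.4 to 285 and 197 (-2.41, adjusted p = 0.00251). CLIC3, a chloride intracellular channel protein, fell from 1625 and 769.9 to 246 and 251 (-2.10, adjusted p = 0.00469). In both, MDA-MB-231 A was the highest array, and the groups did not overlap, as in every called gene. PDE7B, a cyclic AMP phosphodiesterase, went from 906 and 547 to 161 and 159 (-2.03, adjusted p = 0.00183), and SPINK4, a secreted inhibitor of serine proteases, from 442 and 333 to 84.4 and 88.8 (-1.96, adjusted p = 0.000582). CAV2, a coat protein of caveolae, read 7144 and 2651 in MDA-MB-231 and 1007 and 836 in LM2 (-2.23, adjusted p = 0.0123), with -1.54 and -0.17 at its other probes and the call lost without LM2 A or LM2 B (adjusted p up to 0.0811).

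Serine synthesis genes rose in part. PHGDH, the enzyme that opens the pathway from a glycolytic intermediate to serine, gave 242 and 1645 on the MDA-MB-231 arrays and 4211 and 5596 on the LM2 arrays. MDA-MB-231 A was far below MDA-MB-231 B, and both were below LM2. The rise was 7.44-fold (2.89, SE 0.62, adjusted p = 0.0383), and it was 1.55 on the log2 scale without MDA-MB-231 A. PSAT1, the next enzyme, rose from 772 and 1009 to 1850.1 and 2592 (1.30, adjusted p = 0.0266), and SHMT2, which splits serine to glycine in mitochondria, from 3038 and 3669 to 6536 and 8696 (1.17, adjusted p = 0.0363). The other PSAT1 probe, below the filter, differed by -0.0039. PSPH, the last step, had a difference of -0.10 and the cytosolic SHMT1 of -0.11, both with overlapping groups. PHGDH, PSAT1 and SHMT2 were the calls among 19 serine, glycine and one-carbon genes, whose median was -0.0229. None of the 3 kept its call without LM2 A (adjusted p = 0.102 for PHGDH, 0.073 for PSAT1 and 0.148 for SHMT2) or LM2 B (0.166, 0.293 and 0.399).

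ATF4 is a stress-activated transcription factor known to drive serine synthesis genes. Of 25 genes linked to it 2 were higher and none lower, which is 8.0% called against 2.31% of all tested genes. The list median was 0.277, with 19 differences above 0. CEBPB, a bZIP partner of ATF4, rose from 4247 and 3657 to 9285 and 8574 (1.18, adjusted p = 0.0266), and NUPR1, a stress-induced chromatin protein, from 106 and 107 to 225 and 179 (0.82, adjusted p = 0.0204). DDIT3 (1.05), CEBPG (0.89), ASNS (0.61) and ATF4 itself (0.38) did not pass. The core of the C/EBP-ATF element, TGATGNAA on either strand, was in 3.62% of all promoters, in 1 of 19 serine list promoters and in 5 of 27 of the ATF4 list, and in none of the 3 called genes with a promoter entry. No amino acid transporter of 22 was called by limma, with 3 at an unadjusted p under 0.05, nor any of 23 genes of the unfolded protein response, with 2.

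Metallothioneins, small proteins that bind zinc and copper and are induced by metals and glucocorticoids, had 2 rises among 7 and a median of 0.64. The promoter of MT1X is shown because the family shares the metal response element, whose core is TGCACNC or TGCGCNC on either strand and is bound by the zinc sensor MTF1.
MT1X: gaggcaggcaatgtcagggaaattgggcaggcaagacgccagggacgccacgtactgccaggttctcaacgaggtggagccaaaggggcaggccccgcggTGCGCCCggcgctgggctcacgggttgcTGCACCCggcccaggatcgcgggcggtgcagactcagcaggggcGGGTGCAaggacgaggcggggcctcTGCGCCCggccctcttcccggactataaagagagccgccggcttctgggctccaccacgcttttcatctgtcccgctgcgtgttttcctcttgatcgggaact

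It lies at chr16:56682220-56682519 (plus strand, RefSeq, GRCh38.p14) and holds 4 matches, in capitals, at 150, 122, 78 and 53 bases before the start site. Of all promoters 29.6% held at least 1 match and 2.3% at least 3, while each of 5 metallothionein promoters with an entry held one, called or not. MT1X had intensities of 501 and 2069.5 in MDA-MB-231 and 6271 and 4007 in LM2. MDA-MB-231 A was far below the other 3 arrays, and the rise was 4.84-fold (2.28, SE 0.51, adjusted p = 0.0438). MT1F gave 204 and 331 in MDA-MB-231 and 1099 and 847 in LM2 (1.83, adjusted p = 0.00412). MT2A read 5116 and 20643 and 31538 and 28056 and did not pass (1.53, adjusted p = 0.152), and MT1E overlapped between the groups, with 495 and 2238 and 1518 and 1713. MDA-MB-231 A was the lowest array for all 4 of these genes, and without it the differences were 1.27 for MT1X and 1.5 for MT1F. Why that array was low was not tested. Metallothionein probes can pick up close relatives. MT1X was not called without LM2 A or LM2 B (adjusted p = 0.238 and 0.0756). Zinc transporters had no call in limma among 17 and 1 at an unadjusted p under 0.05.

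APOBEC3 genes encode cytidine deaminases that mutate retroviral DNA and sit side by side on chromosome 22. APOBEC3G had intensities of 134 and 172 in MDA-MB-231 and 1146 and 715 in LM2, a rise of 5.49-fold (2.46, SE 0.25, adjusted p = 0.000866), and its other probe gave 1.37. Its neighbour APOBEC3F went from 113 and 148 to 394 and 311 (1.33, adjusted p = 0.00561), with 0.16 to 0.44 at 3 other probes and an adjusted p of 0.056 without LM2 A. The groups were apart in both, as in every called gene. The other 3 genes above the filter did not pass, APOBEC3B at 0.54, APOBEC3H at 0.19 and APOBEC3C at 0.18. APOBEC3B, the member most studied in breast cancer, overlapped between the groups, with 279.8 and 434 in MDA-MB-231 and 647 and 407 in LM2.

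**Figure D4:**
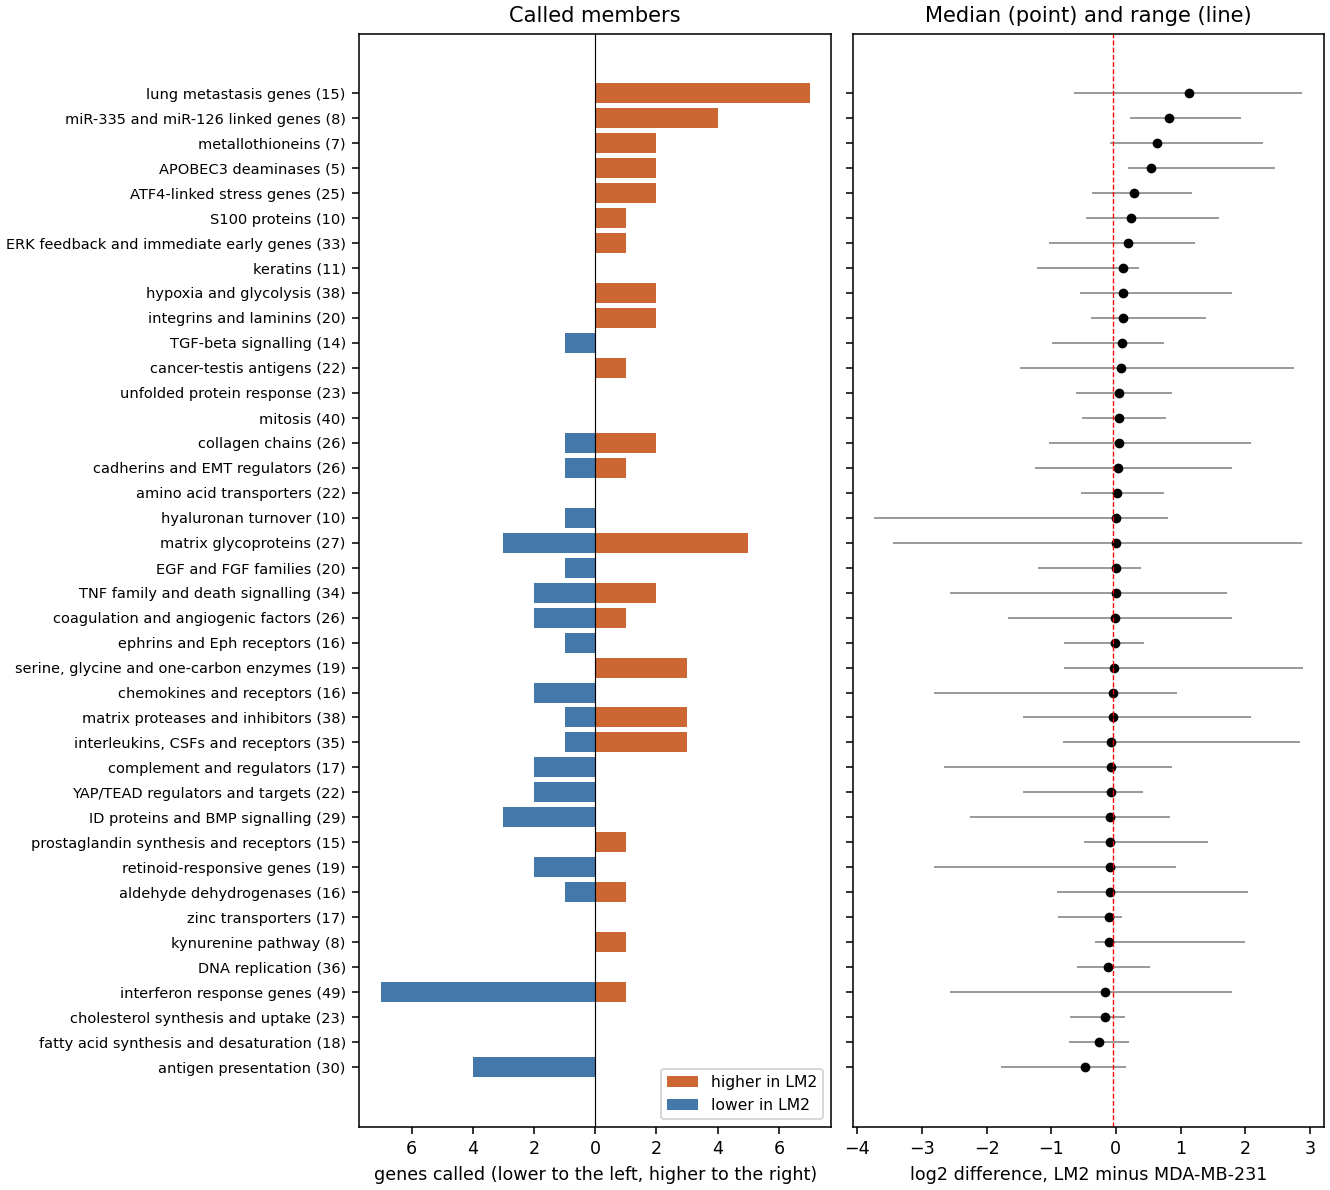
Gene lists ordered by the median log2 difference of their members above the filter, whose number follows the name. The left panel shows how many members were called lower (blue) or higher (orange) in LM2, and the right panel the median (point) and the range (line), with the median of all tested genes as a dashed line at -0.0407; the median is highest for lung metastasis genes (1.13) and lowest for antigen presentation (-0.483).

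Among cell identity genes, CADM1, an adhesion molecule of epithelia and nerve cells, rose from 98.4 and 75.8 to 343 and 333 (1.79, SE 0.17, adjusted p = 0.000663), and CDH1, E-cadherin, fell from 145 and 141 to 93.6 and 93.0 (-0.54, adjusted p = 0.034). CDH1 is dim in both lines, and its call was lost without MDA-MB-231 A, LM2 A or LM2 B (adjusted p up to 0.29). CADM1 and CDH1 were the calls among 26 cadherin and epithelial-mesenchymal genes, which is 7.69% against 2.31% of all tested genes. None of 11 keratins was called by limma, with 3 at an unadjusted p under 0.05. The keratins went both ways, 6 above 0 and 5 below, with a median of 0.118. KRT19 (-1.22), KRT8 (-0.83) and KRT7 (-0.80) were among those below. Of 16 aldehyde dehydrogenases ALDH3A1, which clears aliphatic and aromatic aldehydes, rose from 128 and 101 to 596 and 460.0 (2.05, adjusted p = 0.000866), while mitochondrial ALDH2 was lower (-0.92). S100A2, a calcium-binding protein, rose from 185 and 177 to 674 and 500.2 (1.60, adjusted p = 0.00313), the 1 call of 10 S100 genes, and S100A4 (0.31) did not pass. Of 38 hypoxia and glycolysis genes ANGPTL4 and the aldolase ALDOC (1.57) were higher, which is 5.26% against the same 2.31%. KYNU was the 1 call of 8 kynurenine genes and PTGS2 of 15 prostaglandin genes. These calls are 12.5% and 6.67% of their lists, against 2.31% of all tested genes.

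Lipid and proliferation genes had no call. Of 23 cholesterol genes 21 lay below 0, with a median of -0.175, and of 18 fatty acid genes 15, with a median of -0.267. Single genes were small against their spread, such as the desaturase SCD (-0.31, adjusted p = 0.658) and MSMO1 of sterol synthesis (-0.68, adjusted p = 0.246). DNA replication genes had a median of -0.127 over 36 and mitosis genes of 0.0496 over 40, and neither list had a call in the comparison as made. At an unadjusted p under 0.05 in limma there were 2 cholesterol, 3 fatty acid, 3 DNA replication and 5 mitosis genes.

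Markers of other cell types were checked beside these results. Of 6 fibroblast markers above the filter COL1A1 was called and 5 were not. Their differences were 2 above 0 and 4 below, with a list median of -0.129. The summed intensity over the list was 790.1 and 611.7 in MDA-MB-231 and 1048 and 830.7 in LM2. COL1A1 alone made up 109 and 92.6 of these sums in MDA-MB-231 and 539 and 345 in LM2. Such sums compare arrays only and weigh bright probes most. FAP, THY1 and COL3A1 were below the filter. Of 9 leukocyte markers PTPRC, CD3E, ITGAM and NKG7 were below the filter and 5 were above it without a call, with sums of 3410 and 3858 in MDA-MB-231 and 3912 and 3041 in LM2. Endothelial markers above the filter were 3 of 8, none called, with sums of 654.5 and 1580 in MDA-MB-231 and 1042 and 1085 in LM2, and of 5 melanocyte markers MITF alone was above the filter. At an unadjusted p under 0.05 in limma there were 2 endothelial markers and 0 leukocyte markers. Of 11 breast and line markers CDH1 was lower and 10 did not pass, but 8 lay below 0 and 5, all below 0, had an unadjusted p under 0.05. The median of this list, -0.366, was the second lowest of the lists after antigen presentation, with EPCAM, an epithelial adhesion molecule, at -0.99 (adjusted p = 0.145), CAV1, the caveolae protein caveolin 1, at -0.92 (adjusted p = 0.0827) and GATA3, a luminal transcription factor, at -0.54 (adjusted p = 0.062). Between 0 and 4 of its genes were called lower over the other settings.

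Called genes were then placed in the gene order of RefSeq (GRCh38.p14), a view chosen after the values were seen and given without a test. The tested genes of each chromosome were taken in bins of 25, and the medians of 492 bins lay between -0.523 and 0.397, with 5% below -0.221 and 5% above 0.103. On the X chromosome the first 75 tested genes, from PLCXD1 at the tip of the short arm to IL1RAPL1, had a median of -0.42, and 64 of the 75 lay below 0. Of these genes 10 were called lower and none higher, which is 13.3% against 1.47% of all tested genes. The called genes were GTPBP6, GYG2, PUDP, WWC3, PRPS2, PIR, REPS2, MBTPS2, EIF2S3 and IL1RAPL1. The shift was in each pairing of an LM2 array with an MDA-MB-231 array, from -0.339 to -0.514, and in each other setting, from -0.679 to -0.327. The other 395 genes of the chromosome had a median of 0.00344, with 4 rises and 6 falls. Of these, 4 falls (TAB3, CXorf38, USP9X and CASK) and the rise of MAGEB2 lie in the next 25 genes, whose median was -0.159 with 17 below 0, so the edge at 75 genes, set after the values were seen, is not sharp.

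EIF2S3, which encodes the gamma subunit of translation initiation factor eIF2, shows the size of the difference for a broadly expressed gene of the stretch. Its intensities were 3765 and 2635 in MDA-MB-231 and 1339.5 and 1058 in LM2, with no overlap and a fall of 2.62-fold (-1.39, adjusted p = 0.0204). PUDP, a pseudouridine phosphatase, read 654 and 569 and 225 and 221 (-1.39), and PRPS2, a nucleotide precursor synthetase, 875 and 627 and 343 and 301 (-1.17). In each of them both LM2 arrays were below both parental arrays, as in every gene called lower. These 3 were also chosen after their values were seen.

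Other stretches are given as examples. On chromosome 12 the first 425 tested genes, from SLC6A12 to TMTC2, had a median of 0.135 and 318 lay above 0, which is 74.8%, while the remaining 243 had a median of -0.0613. Calls there were 3 higher and 3 lower, and the median was between 0.103 and 0.229 in the other settings. The last 70 genes of chromosome 15, from C15orf40 to WASH3P, had a median of 0.219, with 58 above 0 and 3 rises, SEC11A, ISG20 and CHSY1, and the bin from FANCI to RGMA within them had the highest median of all, with 24 of 25 genes above 0. From GOLGA6B to RAMAC, just before these 70 genes, the bins had medians of 0.0783, 0.155 and 0.0742. This edge too was set after the values were seen and is not sharp. ISG20, the interferon-stimulated gene that rose, lies in a bin with a median of 0.163, and of the 24 other genes there 18 lay above 0. Interferon-stimulated genes that fell lay in bins of differing medians. IFIT1 and IFIT2 lie on chromosome 10 in a bin where 16 of 21 genes on neither immune list lay below 0 (median -0.219), and MX1 on chromosome 21 in one where 17 of 23 did (median -0.117). For IFI27, PARP12 and LY6E these medians were -0.0361, -0.0764 and -0.0919, and for TNFSF10 0.0431, against -0.0407 over all tested genes. The called antigen presentation genes TAP1, PSMB8, PSMB9 and HLA-DPA1 share 1 bin of chromosome 6 with a median of -0.248, and 13 of its 15 genes on neither list lay below 0, with a median of -0.123. The part of these neighbourhoods in the differences of the members was not tested. All 181 genes of chromosome 18 had a median of -0.212, with 140 below 0 and 5 falls, MOCOS, CTIF, ME2, MALT1 and CYB5A. On chromosome 10 the 200 genes from ANKRD22 to DOCK1 had a median of -0.188, with 166 below 0 and 7 falls. Low single bins lay on chromosome 7 from MRPL32 to SEPTIN7P2 (-0.386), on 21 from DONSON to ETS2 (-0.379) and on 17 from GOSR1 to ZNF830 (-0.339, with 4 falls and 1 rise). Genes of a stretch share a chromosome and are not independent of each other.

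**Figure D5:**
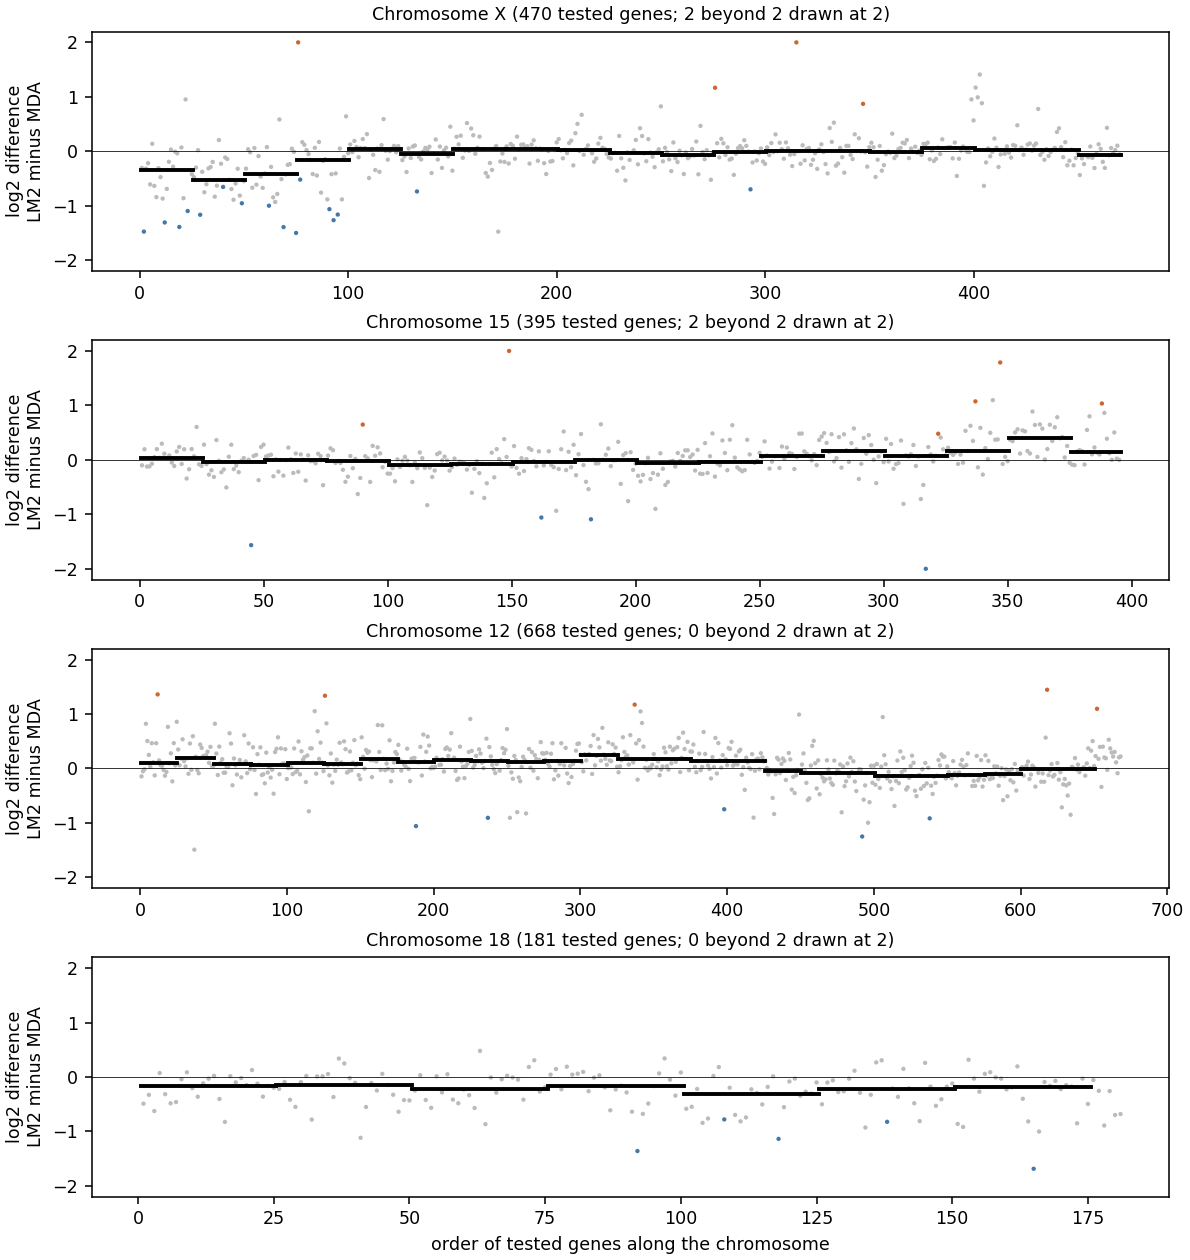
Log2 difference (LM2 minus MDA-MB-231) of each tested gene in its order along chromosomes X, 15, 12 and 18, with called rises in orange, called falls in blue and a black bar for the median of each 25 genes; points beyond 2 in either direction are drawn at 2. The bars lie below 0 over the first 75 genes of X and all along 18. They lie above 0 over the first 425 genes of 12 and the last 70 of 15, and also in the bins just before those 70.

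Among called genes next to each other in the tested order there were 14 runs of one direction, which held 29 genes, with 10 runs lower and 4 runs higher in LM2. The 1 run of 3 genes was PSMB8, TAP1 and PSMB9 in the class II region of chromosome 6. Pairs that were lower included RARRES2 with REPIN1, IFIT2 with the lysosomal lipase LIPA, and PLAAT4 with the galectin LGALS12. Pairs that were higher were TNC with PAPPA, a protease that frees IGF from its carriers, CSF3 with the Mediator subunit MED24, ZNF503 with LRMDA, and APOBEC3F with APOBEC3G. CSF3 and MED24 lie side by side, and MED24 went from 443 and 505 to 1439 and 1398 (1.55, adjusted p = 0.00381). PAPPA went from 129 and 202 to 663 and 511 (1.75, adjusted p = 0.00366), a larger difference than that of TNC.

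Of 91 genes named by rule, 82 were called, and 33 of these kept their call in each of the 15 other settings. Among the genes linked to metastasis and matrix these were SPARC, IL13RA2, ANGPTL4, COL1A1, PLCB1, COL6A1, FBLN1, LAMA4 and SERPINE2 of those that rose and CEMIP, EFEMP1 and MATN2 of those that fell. Among immune genes they were IL1B, CSF3, TNFSF4, ISG20 and APOBEC3G, which rose, and RARRES2, C4BPB, PLAAT4, HCP5 and LY6E, which fell. MT1F, CADM1, S100A2, ALDH3A1, WDR72, CHRM3, MAGEB2 and SLC67A1-AS rose, and DKK1, PDE7B and SPINK4 fell, in every setting as well. Among the settings, the variance prior without a trend ended 39 of 82 calls and averaged probes ended 25. That prior was the only setting that ended the calls of TNFSF10, IFI27, CLIC3, PTPRN2, SPOCK1 and CD70. Leaving out an array ended many calls too, most often where it was an LM2 array.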

How the data were processed

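The Illumina values are linear intensities in 1 table, processed by the authors before they were deposited. How it was normalized, with which software and on which genome build, is not given in the sources used here. Total RNA came from a mirVana extraction and carried a biotin label, per the labels' protocols. The number of arrays limits the precision. Of 48803 probes, 28098 had 1 gene symbol in the platform annotation, 13 several and 20692 none, and 28059 were matched to RefSeq by identifier. Only probes with 1 symbol were used. Each of 18852 genes was represented by its brightest probe on average, and 12490 genes brighter than the median probe were tested. A fold given for a gene is thus that of 1 probe, and other probes of the gene can differ.

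Values were floored at 1 and taken as log2(intensity + 16), which understates changes of dim genes. The deposited scale was kept because the arrays' quartiles differed by 0.0493 log2, under a limit of 0.1. Groups were compared with limma 3.58.1 in R 4.3.3 (lmFit, eBayes with a variance trend, 2 residual degrees of freedom), two-sided, with Benjamini-Hochberg adjustment over all tested genes. With 2 arrays a side the smallest p of an exact permutation test is 0.3333, so each test leans on the variance that limma pools over genes. The steps were tested on simulated data.

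The genes named are the 15 largest rises and 15 largest falls among called genes with groups apart, in each of 45 gene lists at most 6 called members per direction (those of lowest p), and a fixed set linked to metastasis of these cells. Uncalled members and genes of chromosome stretches were added after their values were seen. The members and lists were chosen with earlier results of these data known. Lists are described by counts and medians, and no set was tested. Promoter sequences and gene order are from RefSeq (GRCh38.p14), and the figures come from matplotlib 3.10.9 (Python 3.11.15). The alternatives covered scaling, background, pseudocount, filter, probe rule, variance prior, a fold minimum of 1.5, the letter as a block and each array left out.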

Additional observations from a re-analysis of the deposited data

How the results depend on the processing

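All 289 calls kept their sign in each of the 15 other settings that tested them. Because the groups did not overlap in any call, the sign could change only under another scaling, background subtraction or averaged probes. Quantile normalization kept 231 of the calls and cyclic loess 244. The counts were 66 higher and 118 lower where a gene's probes were averaged, and 41 and 66 with a variance prior that has no trend. Leaving out 1 array gave 46 to 294 higher and 40 to 397 lower, with 46 and 40 without LM2 A, 76 and 40 without LM2 B, 95 and 260 without MDA-MB-231 A and 294 and 397 without MDA-MB-231 B, where the lone array of a line is assumed to vary like the other line. With a fold of at least 1.5 as well, 103 and 174 genes were called, and with every probe tested on its own 124 and 207 probes. With the letter A or B as a replicate block the counts were 209 and 411, and all 289 calls were kept. The A minus B differences of the lines had a correlation across genes of 0.128, over only 2 pairs, so the letters were not taken to pair the arrays. Dim genes limit what can be seen, because background was not fully subtracted. No detection p-values were used, so no gene was called absent.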

Other observations

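Further called genes, outside the naming rule and chosen after their values were seen, are given here singly, with no list or count behind any grouping. Lower in LM2 were the SNARE proteins VAMP8 (-1.87, adjusted p = 0.00415) and VAMP5 (-0.54), the recycling endosome adaptors RAB11FIP1 (-1.78) and RAB11FIP5 (-1.01) and the epithelial small GTPase RAB17 (-1.29). VAMP8 had intensities of 3802 and 5094 in MDA-MB-231 and 1428 and 998 in LM2, and RAB11FIP1 of 2077 and 1826 and 521 and 595, with no overlap. The SNARE proteins of regulated secretion STX1A (1.08) and SNAP25 (0.92) were higher. The lysosomal enzymes LIPA (-1.28), NEU1 (-0.97) and NAGLU (-0.70) were lower.

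The receptor ROR1 (-0.95), the formin DAAM1 (-1.47) and the planar polarity gene PRICKLE1 (-1.06) were lower, and the Wnt receptor FZD8 (0.72) was higher. No list of Wnt genes was followed. Transcription factors that were higher included TFAP2C, from 158 and 330.2 to 738 and 852 (1.72, adjusted p = 0.0119), ZIC2 (1.29), HOXB5 (1.01) and DACH1 (0.73). The receptor NOTCH3 was higher (0.64). LAPTM5 (1.65) and HCLS1 (1.36), both known from blood cells, were higher. Of 9 leukocyte markers 5 were above the filter and none of them was called by limma, with 0 at an unadjusted p under 0.05. LAPTM5 read 318 and 338 in MDA-MB-231 and 1329 and 849 in LM2. MYH10, a nonmuscle myosin heavy chain, fell from 2114 and 2799.8 to 666 and 598 (-1.92, adjusted p = 0.00218).

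Called relatives of the same sign were the pregnancy-specific glycoproteins PSG3 (-1.07), PSG4 (-0.50) and PSG5 (-0.47), the paraoxonases PON2 (-1.49) and PON3 (-0.95) and the butyrophilins BTN3A2 (-0.93) and BTN3A3 (-0.60), all lower. Probes of such close relatives can pick up each other's transcripts.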
